A study of Mus musculus with 4 samples.

Results

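Pulmonary neuroendocrine cells are rare, innervated cells of the airway epithelium that arise early in lung development, sit alone or in clusters called neuroepithelial bodies, and respond to oxygen and other airway stimuli. They store peptides and amines in dense core granules and release them to nearby nerves and tissue. INSM1 is among the transcription factors that set up their fate, and granule proteins, prohormone convertases and peptides such as CGRP are the usual marks of the mature cell. The 9 genes described here are Insm1 (a fate factor), Calca and Calcb (peptides), Chga, Chgb and Resp18 (granule proteins), Pcsk1 (a prohormone convertase), Syp (a vesicle membrane protein) and Ddc (the enzyme that makes serotonin and dopamine from their amino acid precursors). They were chosen by symbol, and 9 of 9 were among the 22556 genes of the deposited table.

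The study examined STK11, a kinase and tumor suppressor, in airway epithelium, and one of its questions was whether other epithelial lineages, neuroendocrine cells included, were altered by its loss. RNA of whole lungs was sequenced at embryonic day (E) 16.5 from 2 genotypes with 2 libraries each. Control embryos were Shh-Cre; Stk11F/+, with 1 floxed allele, and Shh-Stk11 embryos were Shh-Cre; Stk11F/F. All 4 libraries therefore carried the Shh-Cre driver, which is active in lung endoderm, the source of the epithelium, and leaves Stk11 intact in mesenchyme, vessels, nerves and blood. The strain was C57BL/6 according to the labels and a mixed background according to the methods. The methods speak of independent biological replicates, and the litters of the sequenced embryos were not stated. In whole lung, fewer cells of a type and less RNA per cell cannot be told apart.

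Values are FPKM, which scale reads to transcript length and to the mapped reads of the library, so that levels of different genes can be set side by side. The steps between low values gave an estimated depth of 31.3 to 38.6 M reads per library. Stk11 itself, the check of the labels, stood at 44.0 and 45.5 FPKM in Control and at 29.5 and 26.0 in Shh-Stk11 lungs. Its log2 fold change was -0.69 (limma adjusted p = 0.0499). The call held in 5 of 17 alternative settings. Xist was at 65.1, 90.7 and 169 FPKM in the other libraries but at 0.239 in Shh-Stk11 2, where the Y-linked Ddx3y stood at 23.5 against at most 0.0285. Shh-Stk11 2 thus came from a male and the other libraries from females. Fold changes compare Shh-Stk11 with Control as differences of log2(FPKM + 0.1), a scale that shrinks the differences of genes with low values.

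The 9 genes lay on 3 tiers of expression. On the FPKM scale Ddc and Calca were the highest, with means over the 4 libraries of 12.6 and 12.0. Pcsk1, Resp18 and Syp followed with means of 1.87, 1.36 and 1.16, and Chga, Chgb, Insm1 and Calcb were lowest with means of 0.207, 0.206, 0.137 and 0.133. The order within the middle and the lowest tier was not resolved, since neighbouring genes overlapped in their library values. In the top tier the order depended on genotype. The level of Calca was 0.348 and 0.623 times that of Ddc in the Control libraries and 1.70 and 1.95 times that of Ddc in the Shh-Stk11 libraries. From the top to the lowest tier, Calca stood 38.9 to 68.5 times above Chga in each library. Chga, Chgb and Insm1, defining marks of the neuroendocrine cell, were thus near the limit of detection in these whole-lung libraries, whereas Calca and Ddc were well sampled. Summed over the 9 genes the level was 27.2 and 28.4 FPKM in Control and 33.5 and 29.6 in Shh-Stk11 lungs.

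**Figure D1:**
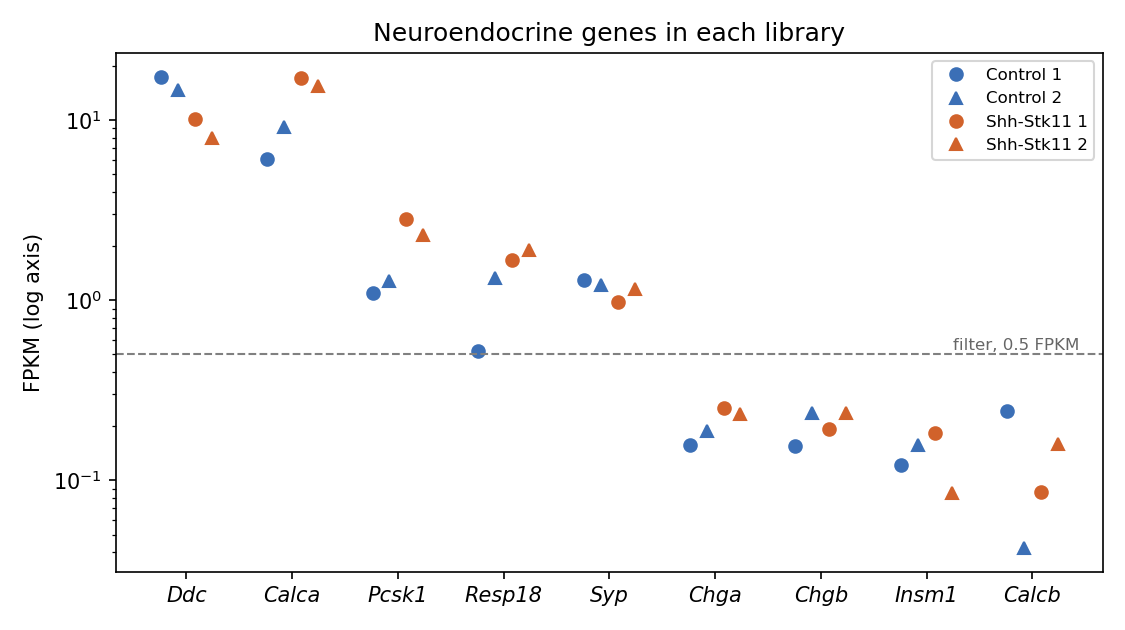
FPKM (log axis) of the 9 genes in each of the 4 libraries, ordered by their mean, with Control in blue and Shh-Stk11 in orange. Calca, Pcsk1, Resp18 and, by a few reads, Chga are higher in both Shh-Stk11 libraries. Ddc and, narrowly, Syp are lower in both. The 4 genes under the dashed line at 0.5 FPKM were left out of the main test.

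A gene was tested when its mean reached 0.5 FPKM, which kept 5 of the 9 (Calca, Pcsk1, Resp18, Syp and Ddc). None of the 5 passed an adjusted p of 0.05 in limma, against 2.27% of the 13770 genes tested. At an unadjusted p under 0.05 there were 4 of 5, of which 3 were higher and 1 was lower in Shh-Stk11 lungs, beside 15.2% of all genes tested. In 3 of the 5 both Shh-Stk11 values lay above both Control values, as in 19.2% of all genes tested, and in the other 2 both lay below, as in 27.6%. The median log2 fold change of the 5, which differed in both directions, was 1.01, and that of all genes tested was -0.05. The median of the 5 was 0.41 without Control 1, and over all 9 genes, with no filter, it was 0.10. With 2 libraries per genotype the smallest two-sided p of an exact permutation test is 0.333, and all p-values here rest on variance shared across genes.

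Calca encodes calcitonin and, by alternative splicing, the neuropeptide CGRP, the peptide most used to mark neuroepithelial bodies. The 2 Control libraries had 6.09 and 9.22 FPKM and the 2 Shh-Stk11 libraries 17.2 and 15.5 FPKM, or about 177, 222, 406 and 393 reads. Both Shh-Stk11 libraries were above both Control libraries, and the gap between the groups was wider than the spread within either. The means were 7.65 ± 2.21 and 16.4 ± 1.20 FPKM (SD, n = 2 each), a ratio of 2.14. The log2 fold change was 1.11 (SE 0.207, 95% interval 0.62 to 1.61), larger than that of 98.8% of the genes tested. With an unadjusted p of 0.00132 and a limma adjusted p of 0.0532, Calca stayed just outside the threshold. Without the male library the log2 fold change was 1.19. One value per gene does not separate calcitonin from CGRP transcripts, of which the annotation (GENCODE M21) lists 7 in all.

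Calcb encodes the second CGRP from a neighbouring, related gene. It was at 0.243, 0.0419, 0.0858 and 0.159 FPKM in Control 1, Control 2, Shh-Stk11 1 and Shh-Stk11 2, which is 1.0 to 6.8 reads. The groups overlapped, and Control 1 and Control 2 held both the highest and the lowest value. Calca was 25.0 to 220 times as high as Calcb within a library, so that reads of the pair came almost wholly from Calca. Reads of 50 bases can tell the pair apart for the most part, because only 12 of 1678 words of 50 bases in Calca transcripts (0.715%) also occurred in Calcb transcripts.

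Pcsk1 encodes the prohormone convertase PC1/3, which cuts peptide precursors inside granules. Its level was 1.10 and 1.27 FPKM in the Control libraries and 2.82 and 2.30 in the Shh-Stk11 libraries, resting on 195 to 423 reads. Again the groups did not overlap. The means were 1.19 ± 0.121 and 2.56 ± 0.364 FPKM (SD, n = 2 each), a ratio of 2.16 that was close to that of Calca. The log2 fold change was 1.04 (SE 0.216, 95% interval 0.52 to 1.56), with an unadjusted p of 0.00236 and a limma adjusted p of 0.0712. Removing the trend with transcript length and GC content brought it to 0.78.

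Resp18, a small protein of the granule lumen, stood at 0.522 and 1.32 FPKM in the Control libraries and at 1.68 and 1.91 in the Shh-Stk11 libraries. These values correspond to 10.2, 21.4, 26.6 and 32.7 reads. Both Shh-Stk11 libraries were the higher ones, but Control 2 lay closer to them than to Control 1. The means were 0.922 ± 0.566 and 1.79 ± 0.169 FPKM (SD, n = 2 each), with a log2 fold change of 1.01 (95% interval 0.04 to 1.97) and a limma adjusted p of 0.306. The size of the difference rested on Control 1, since it was 0.41 without Control 1 and 1.60 without Control 2. An antisense gene overlaps 40 exonic bases of Resp18, and use of strand in the counting was not stated.

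Chga and Chgb encode chromogranin A and B, the acidic proteins that fill dense core granules. Chga was at 0.157 and 0.189 FPKM in Control and 0.251 and 0.233 in Shh-Stk11 lungs, which is about 9.9 reads in each Control and 12.9 reads in each Shh-Stk11 library. Chgb was at 0.156 and 0.238 FPKM in Control and 0.192 and 0.238 in Shh-Stk11 lungs. The Chga groups were apart by about 3 reads, and the Chgb groups overlapped. When the filter was lowered to a mean of 0.1 FPKM, at which 1.91% of 15501 genes were called by limma, none of the 4 lowest genes passed, and none had an unadjusted p under 0.05. The log2 fold change was then 0.33 for Chga (95% interval -0.41 to 1.07) and 0.10 for Chgb (95% interval -0.69 to 0.88). At this depth a doubling of Chga would lie inside the interval, and so would a modest drop.

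The upstream sequences of Calca, Pcsk1, Chga, Chgb and Resp18 are given because Calca, Pcsk1 and Resp18 were all higher in both Shh-Stk11 libraries and because Calca, Chga, Chgb and Pcsk1 are textbook targets of cAMP signaling. Each is the 250 bases before the RefSeq start (GRCm38.p6), 5′ to 3′ on the strand of the gene. RefSeq promoters were found for 7 of the 9 genes. Capitals mark the cAMP response element TGACGTCA, its core TGACG and the E-box CAGCTG, a site type of basic helix-loop-helix factors, each searched on both strands. The windows are chr7:114636358-114636607 (minus strand) for Calca, chr13:75089607-75089856 (plus strand) for Pcsk1, chr12:102554691-102554940 (plus strand) for Chga, chr2:132781392-132781641 (plus strand) for Chgb and chr1:75278416-75278665 (minus strand) for Resp18.
Calca: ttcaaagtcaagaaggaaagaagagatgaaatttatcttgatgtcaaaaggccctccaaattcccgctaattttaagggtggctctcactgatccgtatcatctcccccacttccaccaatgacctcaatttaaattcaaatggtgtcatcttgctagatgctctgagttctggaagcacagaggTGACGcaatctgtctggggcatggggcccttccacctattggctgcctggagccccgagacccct
Pcsk1: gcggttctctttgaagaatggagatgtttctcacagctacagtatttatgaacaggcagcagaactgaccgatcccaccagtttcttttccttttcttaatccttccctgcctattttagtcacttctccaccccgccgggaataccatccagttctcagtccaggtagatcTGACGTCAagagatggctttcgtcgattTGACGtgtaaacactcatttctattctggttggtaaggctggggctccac
Chga: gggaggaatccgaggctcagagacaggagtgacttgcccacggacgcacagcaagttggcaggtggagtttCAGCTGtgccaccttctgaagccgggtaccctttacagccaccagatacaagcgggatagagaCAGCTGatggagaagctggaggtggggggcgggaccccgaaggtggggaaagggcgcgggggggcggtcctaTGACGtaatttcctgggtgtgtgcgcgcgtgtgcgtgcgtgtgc
Chgb: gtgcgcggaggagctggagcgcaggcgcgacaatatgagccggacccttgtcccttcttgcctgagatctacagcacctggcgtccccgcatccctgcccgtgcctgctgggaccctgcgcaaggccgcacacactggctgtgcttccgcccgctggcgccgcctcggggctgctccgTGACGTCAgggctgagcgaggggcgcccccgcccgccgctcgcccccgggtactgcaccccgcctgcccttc
Resp18: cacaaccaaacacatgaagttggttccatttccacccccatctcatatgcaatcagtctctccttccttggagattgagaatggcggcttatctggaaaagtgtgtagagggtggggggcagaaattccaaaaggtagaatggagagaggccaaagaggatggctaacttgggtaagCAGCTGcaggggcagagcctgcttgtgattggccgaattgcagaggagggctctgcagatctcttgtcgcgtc

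The full element TGACGTCA began 78 bases before the start of Pcsk1 and 72 bases before that of Chgb, and it occurred in 1.55% of all 32851 promoters of this length. Pcsk1 held a further TGACG 50 bases before its start. Calca had the core alone, 65 bases before its start, and Chga had it 44 bases before its start. TGACG on either strand was present in 17.8% of promoters, and each full element contains it on both strands. Resp18 had no TGACG but a CAGCTG 73 bases before its start, and Chga held the same word 179 and 116 bases before its start. CAGCTG was present in 13% of promoters. Of the pair with the full element, Pcsk1 was 2.16 times as high in Shh-Stk11 lungs while the values of Chgb overlapped. A match of letters does not show that a factor binds there.

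Ddc encodes aromatic L-amino acid decarboxylase and differed in the other direction. Its level was 17.5 and 14.8 FPKM in the Control libraries and 10.1 and 7.96 in the Shh-Stk11 libraries, from 475 to 1200 reads, the most of the 9 genes. Both Shh-Stk11 libraries were below both Control libraries. The means were 16.1 ± 1.89 and 9.03 ± 1.52 FPKM (SD, n = 2 each), so that Control was 1.79 times as high. The log2 fold change was -0.84 (SE 0.166, 95% interval -1.23 to -0.44), with an unadjusted p of 0.00187 and a limma adjusted p of 0.0631. It was -0.67 without the male library.

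Syp encodes synaptophysin, a membrane protein of small vesicles found in neurons as well as neuroendocrine cells. It was at 1.30 and 1.21 FPKM in Control and 0.982 and 1.16 in Shh-Stk11 lungs. The groups were just apart, with Control 2 and Shh-Stk11 2 nearly level. The log2 fold change was -0.21 (95% interval -0.79 to 0.36, limma adjusted p = 0.722). Relative to Syp, Pcsk1 was at 0.846 and 1.05 in Control and at 2.87 and 1.98 in Shh-Stk11 libraries. An antisense gene overlaps 875 exonic bases of Syp.

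Insm1, the zinc finger factor that drives neuroendocrine differentiation, was at 0.121 and 0.157 FPKM in Control and 0.184 and 0.0854 in Shh-Stk11 lungs. The 2 Shh-Stk11 libraries gave the highest and the lowest value. At the lower filter its log2 fold change was -0.06 (95% interval -0.95 to 0.84) and that of Calcb was -0.01 (95% interval -1.23 to 1.21). Because the scale shrinks differences at such low values, the intervals of Calcb and Insm1 each hold both a halving and a doubling of FPKM. Differences of that size were not detectable at this depth.

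**Figure D2:**
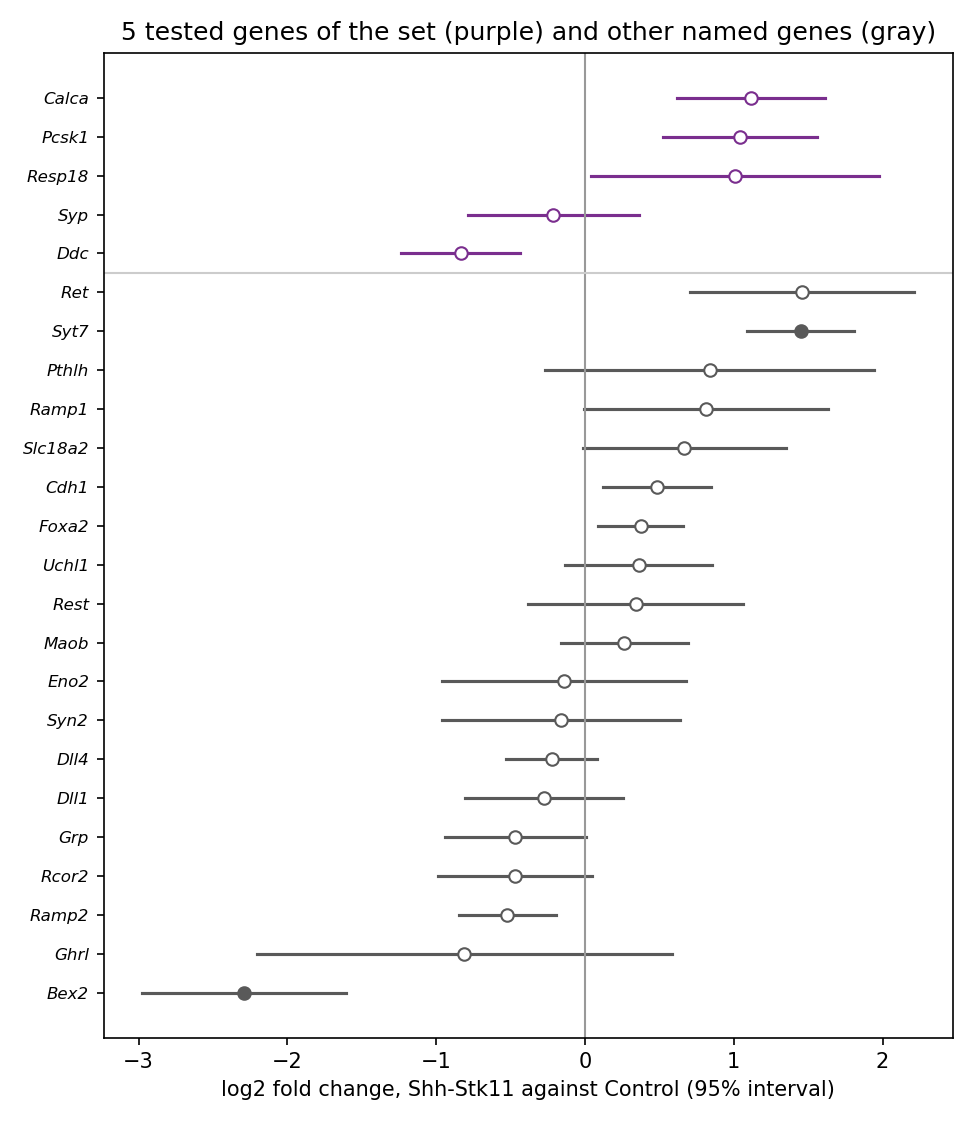
log2 fold change with its 95% interval from limma for the 5 tested genes of the set (purple) and for the list genes named in the text by rule (gray). Filled points passed an adjusted p of 0.05. Among the genes plotted these were Syt7 and Bex2 and none of the 5.

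Other genes linked to the neuroendocrine program were taken from 8 lists, with 101 genes in the table and 56 tested. Some, such as Ramp2, are not particular to these cells. In whole lung, counts over the lists therefore need not describe neuroendocrine cells. Of the 56, 25 were higher and 31 were lower in Shh-Stk11 lungs, 1 passed the adjusted threshold in each direction (3.57%), and the median log2 fold change was -0.05. At an unadjusted p under 0.05 there were 9 (16.1%), close to the share over all genes. These were 5 granule biogenesis genes, 3 of the further marker genes and 1 gene of the calcitonin family (Ramp2), and 0 in the other 5 lists.

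Among the regulators of fate, 7 of 16 were tested and none passed. Rest, the repressor of neuronal and neuroendocrine genes, was at 9.64, 5.01, 9.82 and 7.94 FPKM in the order Control 1, Control 2, Shh-Stk11 1 and Shh-Stk11 2, with the groups overlapping. Its corepressor partner Rcor2 had a log2 fold change of -0.47, which was -0.26 without the male library. The Notch ligands Dll1 and Dll4 differed by -0.28 and -0.22 and did not pass, and Dll1 was at -0.10 without the male library. Neurod1 and Neurod4 were at 0 in every library.

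None of the tested genes of the peptide and amine lists passed. Grp, the bombesin-like peptide of neuroendocrine cells, was at 8.81 and 9.12 FPKM in Control and at 5.33 and 7.79 in Shh-Stk11 lungs, a log2 fold change of -0.47 (95% interval -0.94 to 0.00, limma adjusted p = 0.333). Leaving out Shh-Stk11 1 gave -0.20, and leaving out the male library gave -0.74. Of 14 other peptide genes 8 were tested and none passed, with a median of -0.30. The largest differences among them were 0.84 for Pthlh, the parathyroid hormone-like peptide, and -0.81 for Ghrl, the precursor of ghrelin, both at under 1 FPKM in every library. Each rested on single libraries. Pthlh was at 0.24 without Control 1 and 1.43 without Control 2, and Ghrl was at 0.081 without Shh-Stk11 1 and -1.70 without Shh-Stk11 2. The Control mean of Pthlh, 0.460 FPKM, was under the filter, so only its Shh-Stk11 values brought it into the test. Slc18a2, which loads monoamines into granules, was at 0.511, 0.580, 0.945 and 0.902 FPKM, with the groups apart and a limma adjusted p of 0.341. Maob, an enzyme that degrades amines, differed by 0.26 (0.026 without Shh-Stk11 2 and 0.50 without Shh-Stk11 1), and none of the 6 tested amine and GABA genes passed.

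Among receptors of the calcitonin family, Ramp1, the subunit that turns the calcitonin receptor-like receptor into a CGRP receptor, was at 4.55 and 3.31 FPKM in Control and 4.79 and 9.88 in Shh-Stk11 lungs. The difference came mostly from Shh-Stk11 2 (log2 fold change 0.81, limma adjusted p = 0.332). Leaving that library out gave 0.30, and leaving out Shh-Stk11 1 gave 1.33. Ramp2, its counterpart for adrenomedullin in endothelium, was at 170 and 179 FPKM in Control and 115 and 128 in Shh-Stk11 lungs, with a log2 fold change of -0.52 and a limma adjusted p of 0.119. None of the 5 tested genes of this list passed.

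Granule biogenesis had the highest median of the 8 lists. Of 10 tested genes 7 were higher, with a median log2 fold change of 0.35. At an unadjusted p under 0.05 there were 5, of which 4 were higher and 1 was lower, beside 15.2% of all genes tested, and 1 passed the adjusted threshold, beside 2.27%. Syt7, a calcium sensor for the release of granules and lysosomes, rose from 2.88 and 2.58 FPKM in Control to 7.84 and 7.40 in Shh-Stk11 lungs. Its log2 fold change was 1.45 (SE 0.149, 95% interval 1.09 to 1.81, limma adjusted p = 0.00863), and the groups were well apart. The call was lost without Control 1 (adjusted p = 0.0810) or without Control 2 (adjusted p = 0.104), with log2 fold changes of 1.52 and 1.37. Ptprn, Pam and Rab27a were looked at after their values were seen. Ptprn, a membrane protein of dense core granules also known as IA-2, was at 0.244 and 0.295 FPKM in Control and 0.904 and 0.722 in Shh-Stk11 lungs. Its log2 fold change was 1.30, with a limma adjusted p of 0.126. Its Control mean of 0.269 was under the filter of 0.5 FPKM. Only its Shh-Stk11 values brought it into the test and so into the 4 higher genes. Pam, which amidates peptides such as CGRP, differed by 0.41 (adjusted p = 0.161). Rab27a, a small GTPase of granule docking, differed by -0.66 (adjusted p = 0.135). None of the 7 tested synaptic vesicle genes passed, with a median of -0.09, and Syn2, a synapsin of the vesicle surface, differed by -0.16 (-0.02 without Control 2 and -0.03 without Shh-Stk11 2).

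Of 11 further marker genes tested, 1 passed, beside 2.27% of all genes tested. At an unadjusted p under 0.05 there were 3, of which 1 was higher and 2 were lower, beside 15.2%. Bex2, a small X-linked gene of neural and endocrine cells, fell from 83.8 and 44.1 FPKM in Control to 13.1 and 11.6 in Shh-Stk11 lungs. The Control libraries differed widely, yet both stood far above the others (log2 fold change -2.29, SE 0.285, limma adjusted p = 0.0162). The male and the female Shh-Stk11 library were nearly level. The adjusted p became 0.0696 once the trend with length and GC content was removed and 0.0959 with no filter on low genes, with log2 fold changes of -2.09 and -2.29. Uchl1, the ubiquitin hydrolase PGP9.5 and a standard stain for these cells, was at 12.3 and 18.8 FPKM in Control and 20.2 and 19.0 in Shh-Stk11 lungs, with a log2 fold change of 0.36 and a limma adjusted p of 0.478. It was 0.055 without Control 1 and 0.67 without Control 2. Eno2, neuron-specific enolase, overlapped between the groups at 0.748 to 1.33 FPKM. Chosen after their values were seen, Nov and Kcnk3 differed in opposite directions. Nov, a secreted matrix protein, was at 6.98 and 4.78 FPKM in Control and 12.5 and 11.8 in Shh-Stk11 lungs. Its log2 fold change was 1.06, with a limma adjusted p of 0.0522. Kcnk3 was at 11.4 and 8.71 FPKM in Control and 6.36 and 6.27 in Shh-Stk11 lungs. Its log2 fold change was -0.65, with a limma adjusted p of 0.114.

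**Figure D3:**
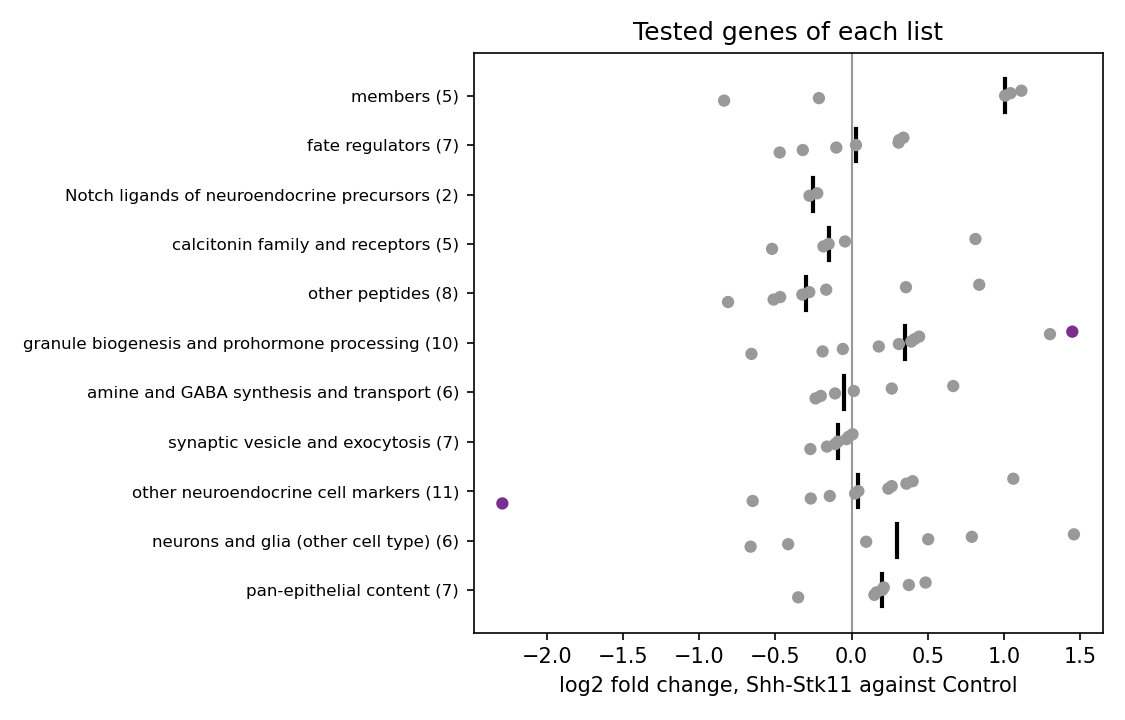
log2 fold change of every tested gene in each list (number of tested genes in brackets), with the median as a black bar and genes past an adjusted p of 0.05 in purple. The top row holds the 5 tested genes of the set, 3 higher and 2 lower with a median of 1.01, and the medians of the 8 other neuroendocrine lists lie between -0.30 and 0.35.

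Whole lung also holds neurons and glia of the airway, which express Syp, Ddc, Chga and Resp18 as well. The summed level of 18 neuronal and glial marker genes was 37.5 to 39.1 FPKM in Control and 36.9 to 39.0 in Shh-Stk11 lungs. Erbb3 alone made up 18.8 and 10.9 FPKM of it in Control and 20.8 and 19.9 in Shh-Stk11 lungs. The sum thus says little of the other genes. In 7 of the 18 both Shh-Stk11 values lay below both Control values, and in 3 both lay above. Among all genes tested these shares were 27.6% and 19.2%. Of the 6 tested, none passed, and the median log2 fold change was 0.30. At an unadjusted p under 0.05 there were 4 (2 higher and 2 lower), beside 15.2% of all genes tested. Ret, the receptor of enteric and sympathetic neurons, was at 0.331 and 0.292 FPKM in Control and at 0.956 and 1.11 in Shh-Stk11 lungs. Its log2 fold change was 1.46 (limma adjusted p = 0.0766). Its Control mean of 0.311 was under the filter, so only its Shh-Stk11 values brought it into the test and the 2 higher genes. Tubb3 and Nefl, lower in both Shh-Stk11 libraries, were under the filter and not tested. Chosen after their values were seen, Stmn2 and Gap43, cytoskeletal and growth cone genes of neurons, were lower, with log2 fold changes of -0.42 and -0.66 (adjusted p = 0.229 and 0.182). The summed level of 7 general epithelial genes was 759 and 796 FPKM in Control and 877 and 957 in Shh-Stk11 lungs. Their median log2 fold change was 0.20, with none past the threshold and 2 (Cdh1 and Foxa2) at an unadjusted p under 0.05. Of the 7, 6 were higher. The exception was Sox2, a gene of airway progenitors, at 4.29 and 3.68 FPKM in Control and 3.14 and 3.06 in Shh-Stk11 lungs. Its log2 fold change was -0.35 (limma adjusted p = 0.388), and at this level it added little to the sum. Set relative to these 7 genes, which shifted the median of all genes from -0.05 to -0.23, Calca differed by 0.94, Pcsk1 by 0.87, Resp18 by 0.83 and Ddc by -1.01. The part of nerve or epithelial content in the differences was not tested beyond these values.

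Genes with a profile most like that of Calca were sought among 12435 tested genes by the root mean square difference of log2 values, centred on each gene's mean, over the 4 libraries. The nearest were Zfp942 (0.0790), Zfp280d (0.0836), Zfp948 (0.0855), Smc5 (0.0888) and Zfp445 (0.0923), that is, 4 zinc finger genes and a subunit of the SMC5/6 chromosome complex. Zfp942 was at 1.61 and 2.33 FPKM in Control and 5.01 and 4.56 in Shh-Stk11 lungs. None of the 5 belongs to a neuroendocrine list, and with only 4 libraries many genes lie near any given profile.

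**Figure D4:**
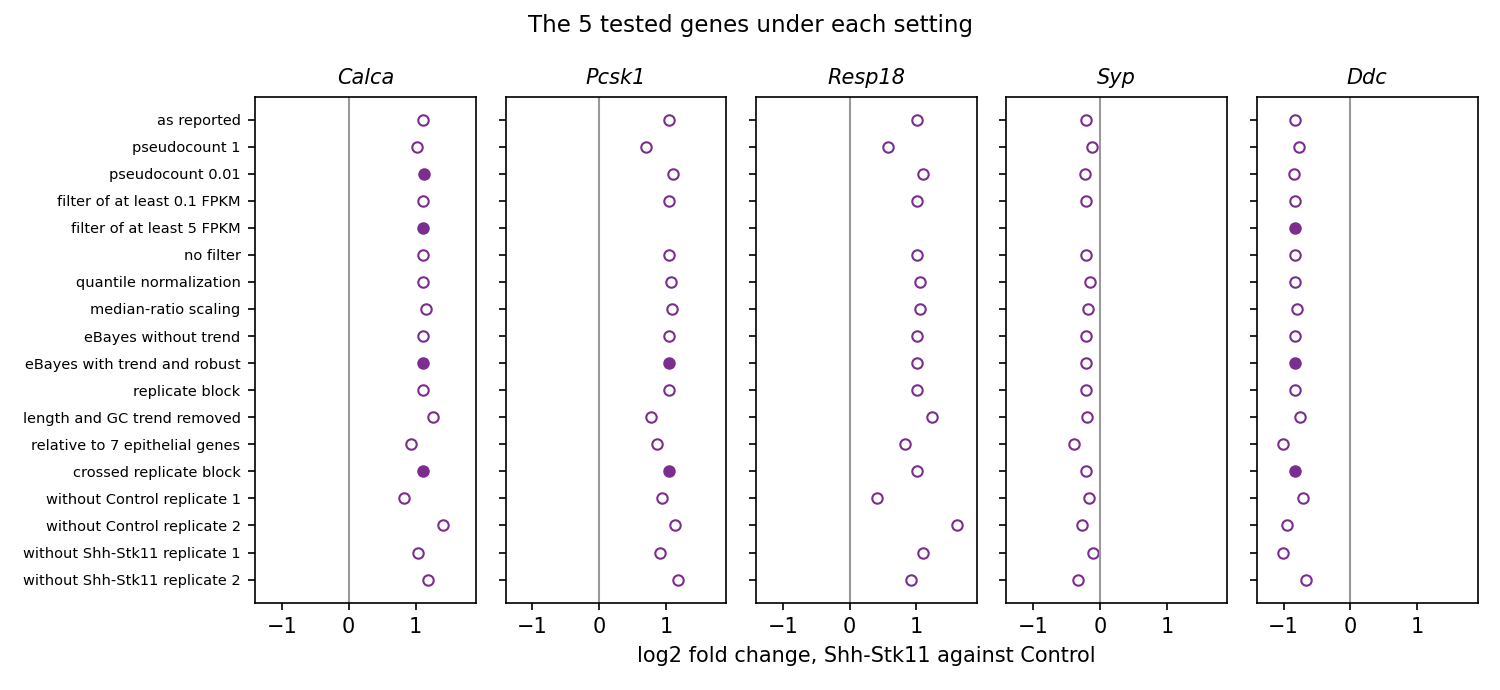
log2 fold change of the 5 tested genes under the reported setting and each alternative, with filled points past an adjusted p of 0.05. Each gene keeps its sign in every setting that tests it, Calca between 0.82 and 1.41 and Ddc between -1.01 and -0.67, while few settings call them.

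The directions of the 5 tested genes were the same under each alternative tried, although the calls were not. Calca passed the threshold in 4 of 17 alternatives, Ddc in 3 of 17 and Pcsk1 in 2 of 16, whereas Resp18 and Syp passed in none of 16. The limma adjusted p of Calca ranged from 0.0135 to 0.183 over the alternatives, and that of Ddc from 0.0265 to 0.261.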

How the data were processed

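Total RNA of 4 whole E16.5 lungs was sequenced (single-end 50-base reads, per the methods of the study). The authors deposited 1 FPKM value per gene and library. Their processing notes name TopHat2 2.0.13, Cufflinks 2.2.1 and the builds GRCm38 and mm9, without roles. Symbols were matched to GENCODE M21 for 20242 genes directly and for 1918 by RefSeq synonyms. Reads per gene were estimated from the steps between low FPKM values, of which 77.7 to 82.4% lay within 0.15 of whole reads per library, and cover counting error only.

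The 13770 genes whose mean reached 0.5 FPKM were fitted as log2(FPKM + 0.1) with limma 3.58.1 in R 4.3.3 (lmFit, eBayes with a trend, genotype as the only term, two-sided) and adjusted by Benjamini-Hochberg. The fit was tested on simulated data. Members and lists were chosen with earlier results of these data known. Named genes were the 9, Stk11, Xist, Ddx3y, Grp, Uchl1, Eno2, the genes of each list past the threshold or else its 2 largest differences, and the 5 nearest to Calca, and results of some named genes are not reported here. The alternatives were other pseudocounts, filters, scalings, eBayes settings, blocks and left-out libraries. The methods call the replicates biological, and p-values measure the spread between these libraries. Promoters are those of RefSeq (GRCm38.p6).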

Additional observations from a re-analysis of the deposited data

How the results depend on the processing

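Depth limits Insm1, Calcb, Chga and Chgb, which had few reads and stayed out of the main test. Of 414 log2 fold changes of named genes under the alternatives, 377 kept their direction and side of the threshold, 19 lost the call, 14 gained it and 4 reversed, all of the last by leaving out a library. With a library left out, Eno2 ranged from -0.48 to 0.19 (0.13 without Control 2, highest without Shh-Stk11 1), Rest from -0.13 (without Control 2) to 0.81 and Ghrl from -1.70 to 0.081 (highest without Shh-Stk11 1). The 313 genes called became 200 with a filter of at least 5 FPKM, 61 with no filter, 587 with robust eBayes, 195 after removing the length and GC trend and 38 to 191 with a library left out. Of the 9 genes, 0 were called as reported, 1 with a pseudocount of 0.01, 2 at 5 FPKM and 3 with robust eBayes. The 2 other neuroendocrine genes called became 0 with no filter, 4 with robust eBayes, 1 after the length and GC trend was removed and 1 to 2 with a library left out. The median of the tested genes of the set moved from 1.01 to 0.57 with a pseudocount of 1, to 0.14 at 5 FPKM and to 0.10 at 0.1 FPKM or with no filter, where all 9 enter, and ranged from 0.41 to 1.14 with a library left out. The cause of these moves was not tested.

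The labels number the libraries without saying that a number marks a litter or batch, and deviations of like numbers correlated at -0.11 across genes. With the replicate number as a block, 13 genes were called, 0 of the 9 and 0 of the other neuroendocrine genes. In this balanced layout a block cannot move a fold change. The limma adjusted p was then 0.0811 for Syt7 and 0.0608 for Bex2. With the numbers crossed, a pairing chosen after seeing the data, 675 genes, 3 of the 9 and 4 others were called.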
